A study of Mus musculus with 15 samples.

Results

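The genes described here encode histone deacetylases and the proteins that hold them in corepressor complexes, among them partners through which the protein MTG8 represses transcription. The list named 41 genes: class I deacetylases (Hdac1 to Hdac3), class IIa (Hdac4, Hdac5, Hdac7 and Hdac9), Hdac10 and Hdac11, 3 sirtuins, subunits of the NCoR, SIN3, CoREST and NuRD complexes, 4 Groucho-type TLE genes, both CtBP genes, Rest, and the zinc finger repressors Zbtb16, Zbtb18, Zbtb33 and Bcl6. The rule takes them by name and uses no measured value, but the list was drawn up with earlier results of these data known. Of the 41, 40 were measured in each table, out of 26835 genes for the Lhx6 experiment and 25714 for the Mtg8 one, and all 40 passed the filter on low values in both. Zbtb33 was not analysed here.

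RNA was sequenced from YFP-positive cells sorted from the cortex of single mouse embryos (C57BL6/CBA mixed background) at E14.5. At this age interneurons born in the medial ganglionic eminence (MGE) migrate through the cortex. The Lhx6 experiment held 4 controls (Lhx6+/+, with the Nkx2-1-Cre Tg transgene and R26R-YFP fl/fl) and 5 littermate mutants (Lhx6-/-, with the same transgene and reporter). The Mtg8 experiment held 3 controls (Mtg8+/+, with the same Cre transgene and reporter) and 3 libraries labelled as littermate mutants (Mtg8-/-). All 4 groups thus carried the Nkx2-1-Cre transgene and the YFP reporter, so the sort took cells with a history of Nkx2-1 expression in the dissected cortex, and both mutant alleles were germline. The comparison within each experiment asked which genes of this machinery differ in level when the transcription factor LHX6, or the corepressor MTG8, is missing.

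Histone deacetylases remove acetyl groups from histone tails, which goes with compact, less transcribed chromatin. They bind no DNA sequence themselves. Scaffolds such as NCoR1, SIN3A, RCOR1 and the NuRD subunits tie them to DNA-binding repressors. MTG8, encoded by Runx1t1, is one such adaptor. It binds no DNA, and is known for recruiting NCoR, SIN3A and class I deacetylases, and for contacts with the zinc finger repressors BCL6 and ZBTB16.

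Recovered reads per library numbered 12218422 to 22053032. The labels were first compared with the targeted genes. Lhx6 was 7247 ± 1093 normalized counts (mean ± SD, n = 4) in its controls and 331 ± 99.7 (n = 5) in its mutants. Runx1t1 was higher, not lower, in each library labelled Mtg8 mutant (13934, 12249.8 and 12352) than in each Mtg8 control (7938, 10265 and 8470.1), so that these libraries are named by their label and no direction in them is read as an effect of a verified loss of the transcript. The Mtg8 allele carries a LacZ insertion, and where the reads fell within the gene was not analysed here. The somatostatin gene Sst was at 14420 to 18501 in Mtg8 controls and 5683 to 8048 in the labelled mutants. The neuropeptide Y gene Npy was at 5037 to 6247 and 1952 to 3577. Neither passed with limma (adjusted p = 0.0713 and 0.58). The paper reports both genes as downregulated in Mtg8 mutants. All 15 markers of MGE-derived interneurons fixed for the cell type were detected in both tables. The library names came in 2 styles, with and without a date. All 4 Lhx6 controls and Lhx6 mutant 6 had undated names and Lhx6 mutants 1, 2, 3 and 5 dated ones, so that name style and genotype cannot be told apart except through mutant 6. The name of mutant 6 begins like those of controls 1 and 2, and the names of mutants 2 and 5 begin alike. What these beginnings stand for is not given in the sources used here.

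In Lhx6 mutants, 2 of the 40 genes passed the test (limma with Benjamini-Hochberg adjustment over all genes tested, adjusted p under 0.05). Bcl6 rose and Tle1 fell. Of all 16727 genes tested, 1.71% passed, 1.03% as higher and 0.682% as lower. The other 38 genes did not pass. The median log2 fold change over the 40 was -0.07, against -0.04 over all genes tested, and 18 were positive and 22 negative. For 30 of the 40 (75.0%) the 95% interval of the fold change lay within -1 and 1 on the log2 scale, compared with 56.8% of all genes. At an unadjusted p under 0.05 there were 5 higher (Bcl6, Tle3, Chd3, Gatad2b and Tbl1xr1) and 2 lower (Tle1 and Hdac3), or 17.5% of the list against 12.7% of all genes (7.11% higher and 5.63% lower). Mutants and controls did not overlap for 3 of the 40 (7.5%), Bcl6 and Chd3 higher and Tle1 lower, against 6.22% of all genes (3.19% higher and 3.03% lower). With DESeq2 on recovered reads Chd3 and Tle3 passed as well, which makes 4 of the 40, against 4.53% of all genes it tested. The count was 1 (Bcl6) without the filter on low values, without the trend or with the replicate block, and 0 with name style as a covariate. The libraries are bulk, so fewer cells expressing a gene and less RNA per cell cannot be told apart.

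**Figure D1:**
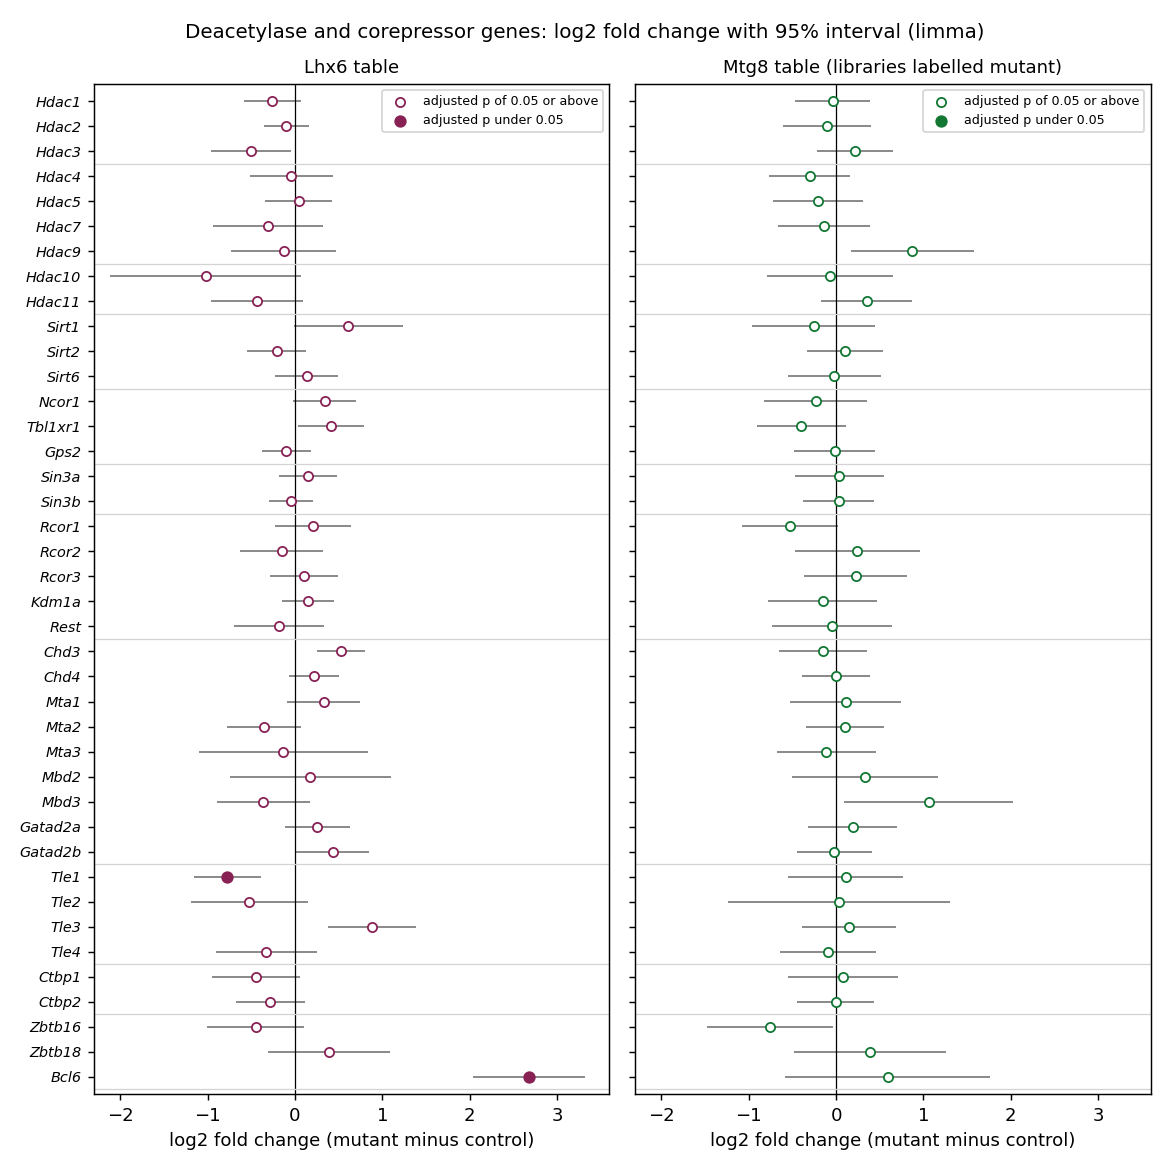
Log2 fold change (mutant minus control, x axis) of the 40 genes, ordered by complex and separated by grey lines, for Lhx6 (left, 4 controls and 5 mutants) and Mtg8 (right, 3 controls and 3 libraries labelled mutant). Points are limma estimates, bars their 95% intervals, and filled points have an adjusted p under 0.05, which holds for Bcl6 (2.68) and Tle1 (-0.77) on the left and for no gene on the right.

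Bcl6 encodes a zinc finger repressor of the BTB family that works through NCoR-type corepressors, is best known from germinal centre B cells, and in the embryonic cortex takes part in the switch from progenitor to neuron, together with SIRT1. Per length it was the lowest of the 40 genes in control interneurons. The normalized counts of Bcl6 were 42.3, 70.9, 36.8 and 40.2 in the Lhx6 controls and 402, 439, 238, 299 and 193 in the Lhx6 mutants. Each mutant was above each control, the lowest mutant by more than the whole control range. The mean went from 47.6 ± 15.7 (SD, n = 4) to 314 ± 105 (n = 5), a 6.61-fold difference (log2 fold change 2.68, 95% interval 2.04 to 3.33, adjusted p = 0.000308 by limma). The two-sided exact permutation test on this gene alone gave p = 0.00794, the smallest that 4 against 5 libraries can give. The counts rest on 40 to 80 reads in controls and 156 to 474 in mutants. Within the undated names, mutant 6 lay 2.05 above the mean of the controls on the log2 scale. With name style as a covariate the difference had that value and an adjusted p of 0.123. The call held without any one library.

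The gene (ENSMUSG00000022508.5, chr16:23965052-23988852, minus strand, GRCm38) has 2 start sites in RefSeq, and the 250 bases before each are printed because Bcl6 was the one gene of the list with a several-fold difference that passed the test in Lhx6 mutants. Capitals mark matches, on either strand, to TTCNNNGAA, a spaced palindrome of the kind bound by STAT factors and resembling the core of BCL6's own site. The first window, chr16:23988853-23989102 on the minus strand, holds 1 match starting 118 bases before the start site. The second, chr16:23981284-23981533 on the minus strand, holds 3, which start 168, 122 and 88 bases before the start site.
Bcl6 upstream of the first start site: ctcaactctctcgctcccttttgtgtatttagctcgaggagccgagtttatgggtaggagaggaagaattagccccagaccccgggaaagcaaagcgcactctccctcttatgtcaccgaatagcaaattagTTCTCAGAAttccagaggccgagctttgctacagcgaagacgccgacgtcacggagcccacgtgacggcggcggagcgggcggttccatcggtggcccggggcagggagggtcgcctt
Bcl6 upstream of the second start site: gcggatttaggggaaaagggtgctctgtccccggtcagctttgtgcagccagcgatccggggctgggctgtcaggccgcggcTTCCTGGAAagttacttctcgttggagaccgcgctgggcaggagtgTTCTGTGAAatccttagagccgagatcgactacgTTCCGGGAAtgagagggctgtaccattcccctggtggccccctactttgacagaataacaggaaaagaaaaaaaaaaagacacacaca
Neither window holds TAATTA, a palindromic core of the kind many homeodomain proteins bind, the class to which LHX6 belongs. Among 32851 RefSeq promoter windows of the same length (GRCm38.p6), 7.02% held TTCNNNGAA and 4.84% TAATTA. Promoters were found for 33 of the listed genes, with 50 windows in all, of which 4 held TTCNNNGAA (Bcl6 and Hdac7) and 2 held TAATTA (Gatad2b and Sin3a). These are matches of letters and no measure of binding.

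The reading of Bcl6 has 1 overlap in the annotation. The short gene Gm37419 lies on the opposite strand within an exon of Bcl6, and had 1 to 8 reads in Lhx6 controls and 4 to 13 in Lhx6 mutants. Strand-specific counting was not given in the sources used here, so reads of the pair may be shared between them. Marker genes of other cells that a sort from cortex could hold were summed in the same libraries. The 8 genes of the pyramidal lineage ranged from 14585 to 19848 in Lhx6 controls and from 11765 to 16328 in mutants, and the 6 cycling genes from 3743 to 4991 and from 2740 to 8797. The 6 radial glia genes ranged from 8224 to 10082 in controls and from 7440 to 14139 in mutants, and the 6 microglia genes from 28.4 to 140.0 and from 15.5 to 332. The 6 endothelial genes ranged from 23.9 to 205 in controls and from 54.5 to 255 in mutants, and the 4 erythroid genes from 5867 to 58166 and from 1695 to 20186. No gene of these 6 lists passed the test. Of the 5 markers of interneurons from the caudal ganglionic eminence (CGE), summed at 1316 to 1648 in controls and 1441 to 2391 in mutants, 1 passed. Htr3a, a serotonin receptor gene, fell from 202 to 253 normalized counts in controls to 33.4 to 116 in mutants (log2 fold change -1.65, adjusted p = 0.0451, limma, and -1.28, adjusted p = 0.966, with name style as a covariate), whereas Nr2f2, a nuclear receptor gene of the CGE, did not pass, at 563 to 840.2 in controls and 981 to 2010 in mutants (0.88, adjusted p = 0.0676). The summed ranges of all these lists overlapped between the groups, as did that of the 15 markers of MGE-derived interneurons, at 53837 to 65955 in controls and 33408 to 55825 in mutants, of which 2 rose and 5 fell, Lhx6 itself among them. A sum can hide a single gene. Sox2 of the radial glia list was at 841 to 1147 in controls and 1345 to 3900 in mutants, without overlap. It did not pass (log2 fold change 0.95, adjusted p = 0.115, limma), and the other genes of that list overlapped between the groups. The part of these markers in the values of Bcl6 was not tested.

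Zbtb18 and Zbtb16 are the remaining zinc finger repressors. ZBTB18 (also called RP58) is needed for cortical neurogenesis, and ZBTB16 (PLZF) recruits NCoR and deacetylases. The normalized counts of Zbtb18 were 804, 1449, 1285 and 1016 in the Lhx6 controls and 3084, 1357, 745, 1593 and 1303 in the Lhx6 mutants. Mutant 1 stood far above the rest and mutant 3 below every control (log2 fold change 0.39, 95% interval -0.31 to 1.09, adjusted p = 0.63, limma). Those of Zbtb16 were 376, 227, 487 and 257 in the Lhx6 controls and 255, 215, 332, 223 and 177 in the Lhx6 mutants. The groups overlapped (log2 fold change -0.45, 95% interval -1.01 to 0.11, adjusted p = 0.494).

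The TLE proteins are homologues of fly Groucho. They form tetramers that bind repressors such as the HES proteins and bring in deacetylases. Tle1 (ENSMUSG00000008305.18, chr4:72117142-72200919, minus strand) was the other gene of the list to pass the test. Its normalized counts were 634, 607, 693 and 558 in the Lhx6 controls and 470.2, 306, 335, 305 and 426 in the Lhx6 mutants. The highest mutant was below the lowest control, and the mutant mean was 59.2% of the control mean, 369 ± 75.2 (n = 5) against 623 ± 56.0 (n = 4), with a log2 fold change -0.77, 95% interval -1.16 to -0.39, adjusted p = 0.0473 by limma and p = 0.0159 by the two-sided exact permutation test. Mutant 6 was at 426 against 558 in the lowest control, both with undated names. The adjusted p was near the threshold, and Tle1 kept its call in the absence of mutant 1 or of mutant 6 but lost it, with adjusted p from 0.0642 to 0.176, when any of the other 7 libraries was left out. With name style as a covariate the log2 fold change was -0.54 and did not pass.

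Tle3 pointed the other way. Its normalized counts were 473, 481, 809 and 577 in the Lhx6 controls and 1614, 986, 1040.4, 1095 and 713 in the Lhx6 mutants. Mutant 6, at 713, fell among the controls, and the other 4 mutants were above them all. The mean was 585 ± 157 in controls and 1089.5 ± 328 in mutants and Tle3 missed the threshold (log2 fold change 0.88, 95% interval 0.38 to 1.38, adjusted p = 0.0885, limma). Without mutant 6 the adjusted p was 0.0278 and the log2 fold change 1.02, and mutant 6 is the only mutant with the name style of the controls. Within the undated names, mutant 6 lay 0.32 above the control mean on the log2 scale. Tle2 (-0.52) and Tle4 (-0.33) had negative log2 fold changes, and neither passed. Thus of 4 TLE genes 1 fell, and 3 did not pass the test.

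**Figure D2:**
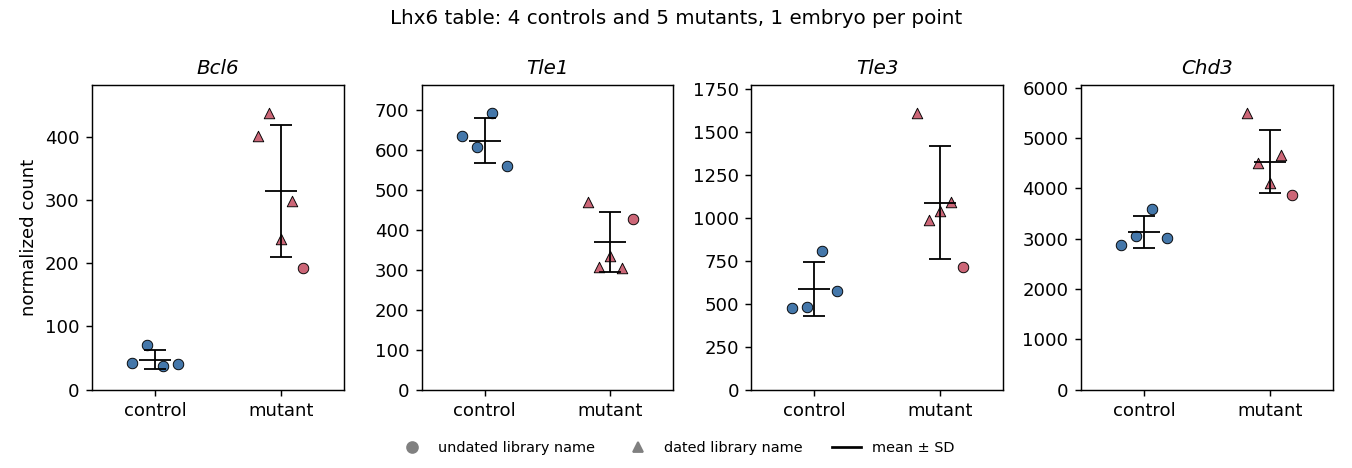
Normalized counts (y axes start at 0) of Bcl6, Tle1, Tle3 and Chd3 in the 4 Lhx6 controls (blue) and 5 Lhx6 mutants (red). Each point is 1 embryo, triangles are libraries with a dated name, and bars give the mean ± SD; the groups are apart for Bcl6, Tle1 and Chd3, and 1 mutant (713) lies within the control range for Tle3.

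The NuRD complex joins nucleosome remodelling by CHD3, CHD4 or CHD5 to deacetylation by HDAC1 and HDAC2. The MTA and GATAD2 proteins form its scaffold, and MBD2 or MBD3 defines its 2 forms. None of its 9 listed genes passed the test in Lhx6 mutants, 6 had positive and 3 negative log2 fold changes. Chd3 came closest. The normalized counts of Chd3 were 2875, 3054, 3586 and 3017 in the Lhx6 controls and 5507, 4509, 4115, 4658 and 3873 in the Lhx6 mutants. All mutants were above all controls, with means of 3133 ± 312 in controls and 4532 ± 627 in mutants (log2 fold change 0.53, 95% interval 0.25 to 0.81, adjusted p = 0.0678, limma). The exact permutation test on Chd3 alone gave an unadjusted p = 0.00794, the smallest that 4 against 5 libraries can give. Mutant 6 was 0.31 above the control mean on the log2 scale. Chd4, the alternative remodeller, had a log2 fold change of 0.22 (95% interval -0.07 to 0.51). Gatad2b was at 0.43 (unadjusted p = 0.0436, adjusted p = 0.377) and Gatad2a at 0.26. The normalized counts of Mbd3 were 1962, 1539, 1655 and 1886 in the Lhx6 controls and 839, 1198, 1981, 1115 and 2123 in the Lhx6 mutants, and those of Mta2 were 2250.5, 1807, 1772 and 2043 in the Lhx6 controls and 1189, 1188, 2149, 1396 and 1993 in the Lhx6 mutants. In both genes mutants 1, 2 and 5 were below every control and mutants 3 and 6 were not, and neither passed (adjusted p = 0.564 and 0.475). The log2 fold changes were -0.36 for Mbd3 and -0.35 for Mta2. Within the undated names the log2 differences were 0.28 and 0.025, opposite in sign. Mta1 (0.33), Mta3 (-0.13) and Mbd2 (0.17) did not pass either, and the intervals of Mta3 and Mbd2 reached beyond a 2-fold difference.

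No deacetylase passed the test in Lhx6 mutants. The class I enzymes HDAC1 and HDAC2 are the catalytic subunits of SIN3, NuRD and CoREST, and HDAC3 is that of NCoR. The normalized counts of Hdac2 were 7189, 7387, 6912 and 8151 in the Lhx6 controls and 6139, 7018, 8557, 6377 and 6709.6 in the Lhx6 mutants, and the groups overlapped (log2 fold change -0.10, 95% interval -0.36 to 0.16, adjusted p = 0.743, limma). Hdac1 was at 1681, 1665, 1446 and 1689.9 in the Lhx6 controls and 1135, 1383, 1389.6, 1158 and 1784 in the Lhx6 mutants. Of the mutants, 4 were below all controls and mutant 6 was above them (log2 fold change -0.26, 95% interval -0.59 to 0.07, adjusted p = 0.502). Within the undated names the log2 difference of Hdac1 was 0.14, opposite in sign. Hdac3 ranged from 2373 to 2899 in controls and from 1188 to 2816 in mutants, with a log2 fold change of -0.50 (unadjusted p = 0.0327, adjusted p = 0.338). For Hdac1, Hdac2 and Hdac3 the intervals excluded a 2-fold difference in either direction.

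Class IIa deacetylases have little catalytic activity of their own and shuttle between nucleus and cytoplasm in step with neuronal activity. Their log2 fold changes were -0.04 for Hdac4, 0.04 for Hdac5, -0.31 for Hdac7 and -0.13 for Hdac9, all 4 with intervals inside a 2-fold difference. The normalized counts of Hdac5, the most abundant of the class, were 759, 608, 949.8 and 735 in the Lhx6 controls and 1034, 684, 739, 811 and 661 in the Lhx6 mutants. Hdac10, a largely cytoplasmic polyamine deacetylase, had the widest interval of the list. It was at 307, 139, 264 and 166 in the Lhx6 controls and 33.4, 63.9, 161, 118 and 266 in the Lhx6 mutants, so that mutants 1, 2 and 5 were below every control and mutants 3 and 6 within the control range (log2 fold change -1.02, 95% interval -2.11 to 0.07, adjusted p = 0.424). Within the undated names the log2 difference of Hdac10 was 0.35, opposite in sign. Hdac11 was at -0.43 (adjusted p = 0.481). The sirtuins use NAD as a cosubstrate. Sirt1, the partner of BCL6 in cortical neurogenesis, had a log2 fold change of 0.61 (95% interval -0.01 to 1.23, adjusted p = 0.398), with 124 to 239 normalized counts in controls and 149 to 344 in mutants. Sirt2, a mainly cytoplasmic enzyme that deacetylates tubulin, was at 1109, 1130.0, 1006 and 1208 in the Lhx6 controls and 797, 856, 1142, 874 and 1202 in the Lhx6 mutants and Sirt6 had a log2 fold change of 0.14.

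The scaffolds that MTG8 contacts most directly did not pass the test either. Ncor1, the large scaffold of the HDAC3 complex, was at 2600.4, 2817, 3093 and 3122 in the Lhx6 controls and 5231, 3945, 3161, 3655 and 2785 in the Lhx6 mutants (log2 fold change 0.34, 95% interval -0.02 to 0.70, adjusted p = 0.428). Within the undated names the log2 difference of Ncor1 was -0.06, opposite in sign. Tbl1xr1, which handles the exchange of corepressors, was at 0.41 (unadjusted p = 0.0341, adjusted p = 0.347). Gps2, a small subunit of the same complex, was at 982, 907, 889.9 and 1036 in the Lhx6 controls and 785, 904, 947, 928 and 889 in the Lhx6 mutants (95% interval -0.38 to 0.18). Sin3b, at 1634, 1749, 1685 and 1659.9 in the Lhx6 controls and 1732, 1534, 1473, 1769.9 and 1642 in the Lhx6 mutants, had a log2 fold change of -0.05 and Sin3a of 0.15. CoREST couples HDAC1 and HDAC2 to the histone demethylase KDM1A and serves REST, the silencer of neuronal genes outside neurons. Kdm1a was at 1540.1, 2000.3, 1837 and 2008 in the Lhx6 controls and 2386, 2204, 1688, 2003 and 1967 in the Lhx6 mutants (log2 fold change 0.15, 95% interval -0.15 to 0.45, adjusted p = 0.664), and the log2 fold changes of Rcor1, Rcor2, Rcor3 and Rest ran from -0.19 (Rest) to 0.21 (Rcor1). The CtBP proteins bind short peptide motifs of repressors and sense NADH. Ctbp1 was at 5936, 3873, 5526 and 4930.2 in the Lhx6 controls and 2627, 3433, 6602, 3038 and 3666 in the Lhx6 mutants. Mutant 3 was the highest library of all, and the other 4 mutants lay below every control (log2 fold change -0.45, 95% interval -0.95 to 0.05, adjusted p = 0.447). Ctbp2 had a log2 fold change of -0.28 (adjusted p = 0.541).

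**Figure D3:**
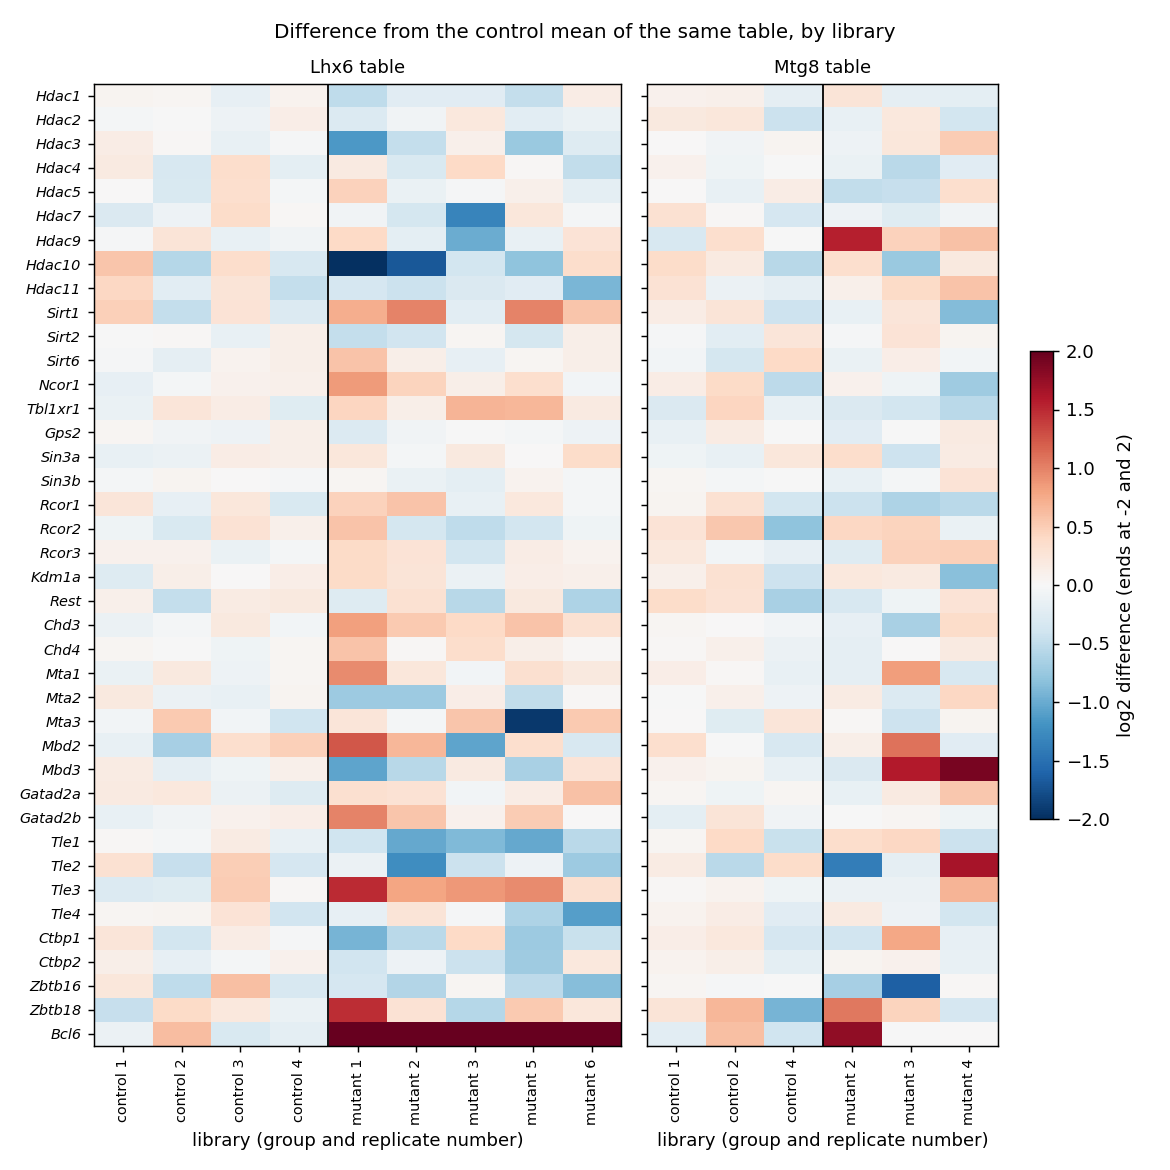
Log2 difference of each library (columns) from the mean of the controls of its own table, for the 40 genes (rows); the scale ends at -2 and 2, and the black line parts controls (left) from mutants (right). The row of Bcl6 is high in all 5 Lhx6 mutants, that of Ctbp1 is above the control mean in mutant 3 alone of the 5, and that of Mbd3 is high in labelled mutants 3 and 4 of the Mtg8 table.

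Among the 5 Lhx6 mutants, mutant 1 was the highest for 15 of the 40 genes and the lowest for 8, and mutant 3 the highest for 9 and the lowest for 13. Of all genes tested, mutant 1 was the highest for 30.6% and the lowest for 31.3%, and mutant 3 for 27.3% and 25.4%.

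In the Mtg8 table none of the 40 genes passed the test with limma, and none did with DESeq2 or edgeR on recovered reads. None of all 16132 genes tested passed with limma either (0.0%), and DESeq2 called 0.152% of the genes it tested. At an unadjusted p under 0.05 there were 3 of the 40 (7.5%), Hdac9 and Mbd3 higher and Zbtb16 lower, against 5.49% of all genes (3.06% higher and 2.44% lower). The groups did not overlap for 3 (7.5%), Hdac9 higher and Hdac4 and Rcor1 lower, against 10.2% of all genes (4.68% higher and 5.52% lower). The median log2 fold change of the list was -0.0026 (-0.01 over all genes), and its median size 0.14, against 0.22. For 32 of the 40 (80.0%) the 95% interval lay within a 2-fold difference, compared with 60.4% of all genes.

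Hdac9 was at 109.5, 173 and 137 in the Mtg8 controls and 407, 190.2 and 207 in the libraries labelled Mtg8 mutant. Each labelled mutant was above each control, with labelled mutant 2 the highest (log2 fold change 0.87, 95% interval 0.17 to 1.58, adjusted p = 0.859; p = 0.1 by the exact permutation test, the smallest that 3 against 3 can give). Hdac4 was at 578, 516 and 545 in the Mtg8 controls and 495, 377 and 466 in the libraries labelled Mtg8 mutant, with all labelled mutants below all controls (log2 fold change -0.30, 95% interval -0.76 to 0.16, adjusted p = 0.875). Rcor1 was at 282, 335 and 210.3 in the Mtg8 controls and 201, 176 and 187 in the libraries labelled Mtg8 mutant, again without overlap (log2 fold change -0.53, 95% interval -1.08 to 0.02, adjusted p = 0.859). Rcor1 shares exonic positions with Gm48632 on the same strand, so its count may depend on how such reads were assigned. Exons of Ctbp2 likewise overlap those of Fgfr2 on the same strand, and exons of Hdac7, Hdac11, Sirt2, Ncor1, Sin3a, Rcor3, Gatad2b, Tle1 and Zbtb18 overlap genes on the other strand.

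Mbd3 was at 265, 258 and 225 in the Mtg8 controls and 203, 746 and 929 in the libraries labelled Mtg8 mutant. Labelled mutant 2 was below every control and labelled mutants 3 and 4 were several-fold above them (log2 fold change 1.06, 95% interval 0.10 to 2.03, adjusted p = 0.859). Without labelled mutant 2 the log2 fold change was 1.74 and the adjusted p 0.0161, and Mbd3 was then the one gene of the list to pass, among 87 of all genes in that fit, against 0 with all 6 libraries. Labelled mutant 2 and controls 1 and 2 had dated names with the same date, and labelled mutants 3 and 4 and control 4 had undated ones. Within the dated names the log2 difference of Mbd3 was -0.37, and within the undated ones 1.88. Zbtb16 was at 1118, 1063 and 1076 in the Mtg8 controls and 683.10, 349 and 1108 in the libraries labelled Mtg8 mutant. Labelled mutant 4 was within the control range and labelled mutants 2 and 3 below it (log2 fold change -0.76, 95% interval -1.48 to -0.03, adjusted p = 0.859), with log2 differences of -0.67 within dated and -0.79 within undated names. For Hdac9 these differences were 1.56 within dated and 0.53 within undated names. For Hdac4 they were -0.14 and -0.38, and for Rcor1 -0.61 and -0.21.

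**Figure D4:**
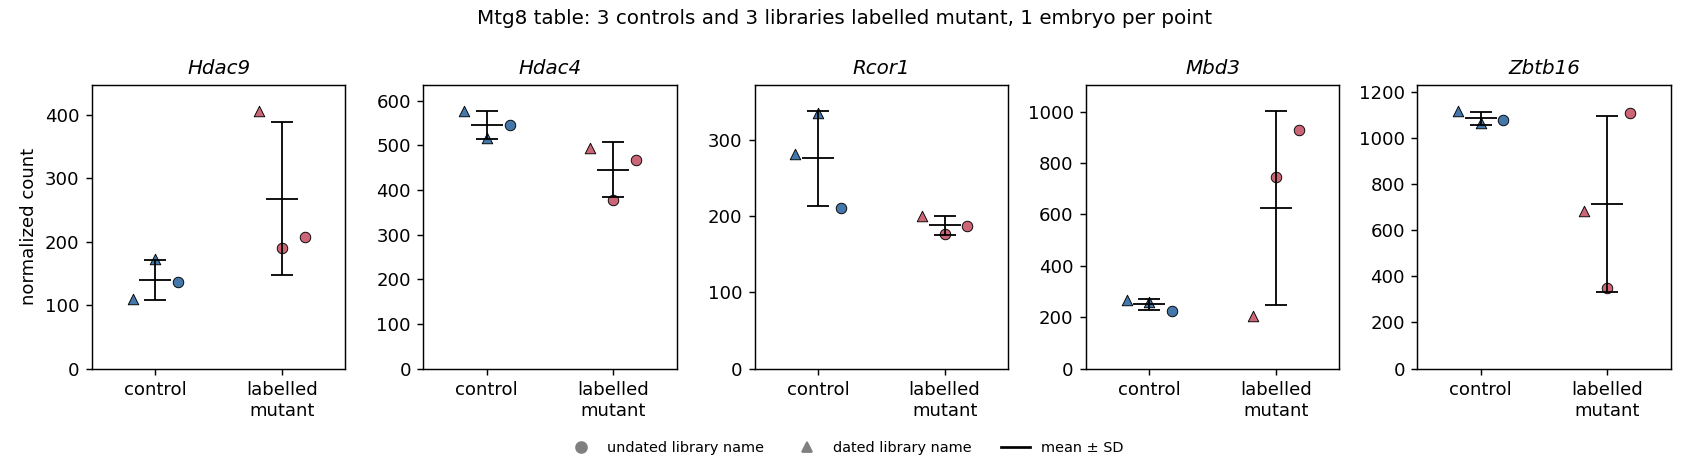
Normalized counts (y axes start at 0) of Hdac9, Hdac4, Rcor1, Mbd3 and Zbtb16 in the 3 Mtg8 controls (blue) and the 3 libraries labelled mutant (red). Each point is 1 embryo, triangles are libraries with a dated name, and bars give the mean ± SD; the groups are apart for Hdac9, Hdac4 and Rcor1, and for Mbd3 and Zbtb16 1 labelled mutant lies away from the other two.

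The genes of the Lhx6 comparison had these values in the Mtg8 table, which was normalized apart and shares no control with the Lhx6 table. Bcl6 was at 19.0, 34.1 and 16.6 in the Mtg8 controls and 78.2, 22.1 and 22.2 in the libraries labelled Mtg8 mutant. Labelled mutant 2 alone was above the controls (log2 fold change 0.59, 95% interval -0.58 to 1.76, adjusted p = 0.896). Tle1 was at 255, 326 and 181 in the Mtg8 controls and 314, 328 and 183 in the libraries labelled Mtg8 mutant (log2 fold change 0.11, 95% interval -0.55 to 0.77, adjusted p = 0.966) and Tle3 at 564, 579 and 519 in the Mtg8 controls and 512, 513 and 888 in the libraries labelled Mtg8 mutant. Chd3 was at 4022, 3955 and 3797 in the Mtg8 controls and 3496, 2506 and 5071 in the libraries labelled Mtg8 mutant. None of these 4 passed the test there, and no test set one experiment against the other. The 3 class I genes had log2 fold changes of -0.04 for Hdac1, -0.10 for Hdac2 and 0.22 for Hdac3, with intervals inside a 2-fold difference. The same held for Sin3a (0.04), Sin3b (0.03), Ncor1 (-0.23) and Gps2 (-0.02). For Bcl6, Tle2, Mbd2 and Zbtb18 the interval reached beyond a 2-fold difference.

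Control 4 of the Mtg8 table was the lowest of the 3 controls for 25 of the 40 genes and the highest for 7. Of all genes tested it was the lowest for 38.6% and the highest for 38.2%. These are ranks and give no distance between the controls. Control 2 was the highest for 20, and for 33.1% of all genes tested. The summed pyramidal lineage markers ranged from 5042 to 12740 in the Mtg8 controls and from 7772 to 19973 in the labelled mutants, and the cycling markers from 3451 to 3810 and from 4464 to 5166 without overlap. The radial glia markers ranged from 5736 to 7102 in controls and from 7249 to 11652 in labelled mutants, also without overlap. The 15 markers of MGE-derived interneurons, the lineage that was sorted, had a lower sum in each labelled mutant. It was 53309 to 69403 against 83327 to 89793 in controls. The sum of the 5 CGE markers was higher, at 1708 to 2475 against 1596 to 1645. Within these sums single genes went both ways. Among the MGE markers Sst had a log2 fold change of -1.34 and Dlx2 of 0.99. Sp8 and Htr3a of the CGE list were at 1.45 and -0.50, and Vim and Sox2 of the radial glia list at 0.81 and -0.34. No single gene of these lists passed the test with limma. Their part in the values of this table was not tested.

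To compare genes with each other, levels in controls were taken as RPKM, the reads scaled to the exon length in kilobases and to the library total. In Lhx6 controls the 5 highest were Hdac2 at 109 ± 6.63 (SD, n = 4), Ctbp1 at 74.6 ± 13.06, Mbd3 at 58.4 ± 6.08, Hdac3 at 42.9 ± 3.75 and Gps2 at 39.2 ± 2.33. In Mtg8 controls they were Mta2 at 37.98 ± 3.27 (SD, n = 3), Hdac1 at 29.0 ± 3.70, Hdac2 at 28.09 ± 7.27, Chd3 at 24.9 ± 1.52 and Hdac3 at 24.9 ± 1.18. In the Lhx6 order, Hdac2 and Ctbp1 were apart by more than their SDs, as were Mbd3 and Hdac3, whereas Ctbp1 and Mbd3, and Hdac3 and Gps2, overlapped within them. In the Mtg8 order the SDs of ranks 2 to 5 overlapped. Bcl6 was the lowest in both, at 0.469 ± 0.161 and 0.186 ± 0.0755, and Hdac9 was next to last in both. Among the class IIa genes Hdac5 was the highest in both, and among the TLE genes Tle1 in Lhx6 controls and Tle3 in Mtg8 controls.

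**Figure D5:**
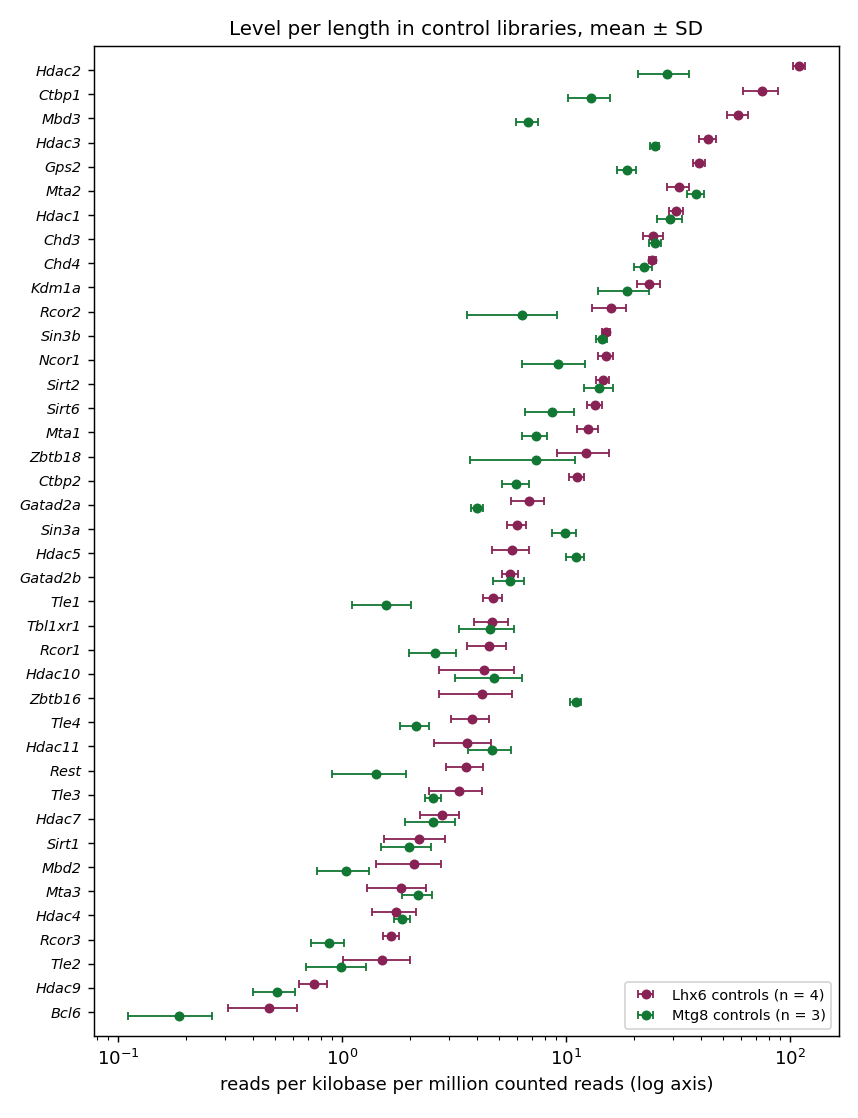
Level of each gene per length, in RPKM (log axis), in the 4 Lhx6 controls and the 3 Mtg8 controls; points are means and bars ± SD, and genes are ordered by their level in Lhx6 controls. Hdac2, Ctbp1 and Mbd3 are lower in Mtg8 controls, Zbtb16 is higher, and Bcl6 is the lowest in both.

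Both control groups carried wild-type alleles of the gene under study and the same Cre and reporter, at the same age and with cells sorted in the same way. Even so, their levels differed. In RPM, reads scaled to the library total alone, 9 of the 40 genes (22.5%) were at least 2-fold apart with ranges that did not overlap, against 17.8% of the 15629 genes tested in both tables. Of these, 8 were higher in Lhx6 controls, namely Hdac2, Ctbp1, Mbd3, Gps2, Rcor2, Tle1, Rest and Bcl6. Zbtb16 was higher in Mtg8 controls. Mbd3 was at 116 ± 12.08 RPM in Lhx6 controls and 13.4 ± 1.53 in Mtg8 controls, and Ctbp1 at 334 ± 58.4 and 57.7 ± 12.4. Zbtb16 was at 22.2 ± 7.92 and 58.2 ± 3.29. Ranges that did not overlap, at any size, occurred for 21 of the 40 (52.5%), against 47.1% of all genes. Markers of the pyramidal lineage also differed between the control groups. Their sum was 965 to 1329 RPM in Lhx6 controls and 262 to 679 in Mtg8 controls, and 5 of the 8 were at least 2-fold higher in Lhx6 controls without overlap, among them Neurog2, a proneural gene of cortical progenitors, at 112 ± 12.2 against 6.995 ± 2.92. The radial glia markers (544 to 675 against 306 to 369 RPM) and cycling markers (248 to 322 against 184 to 209) were higher in Lhx6 controls too, and the MGE interneuron markers lower (3604 to 4358 against 4443 to 4837). Their part in the differences between the control groups was not tested. Name style was unevenly spread as well. All Lhx6 controls and Mtg8 control 4 had undated names, and Mtg8 controls 1 and 2 dated ones. The controls of the tables are different embryos, so that table and embryo cannot be told apart, and no test was made.

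Beyond the list, 50 further genes of the same pathways were tested, among them the remaining subunits of SIN3, NuRD and CoREST, CtBP partners, the MTG family and the histone acetyltransferases, which oppose the deacetylases. In Lhx6 mutants 3 of the 50 (6.0%) rose and none fell, against 1.03% and 0.682% of all genes tested. Kat6b, an acetyltransferase, went from 878 ± 51.3 to 1954 ± 547, with a log2 fold change of 1.12 and an adjusted p of 0.00552. Zfp217, a zinc finger protein that binds CtBP, went from 26.3 ± 6.75 to 103 ± 38.01, with a log2 fold change of 1.89 and an adjusted p of 0.0119. Runx1t1, the gene of MTG8, went from 7449 ± 1072 to 17973 ± 5387, with a log2 fold change of 1.23 and an adjusted p of 0.00401, and the groups were apart, with 7232, 6394, 8945 and 7225 in the Lhx6 controls and 26527, 15377, 16613, 19119 and 12227 in the Lhx6 mutants. With name style as a covariate the log2 fold changes were 0.70 for Kat6b, 1.63 for Zfp217 and 0.73 for Runx1t1, and none of the 3 passed (limma adjusted p from 0.596 to 0.697). None of the 13 SIN3 subunits, 3 NuRD subunits or 5 CoREST subunits on that list passed. In the Mtg8 table none of the 50 passed with limma, and 6 (12.0%) had an unadjusted p under 0.05, against 5.49% of all genes.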

How the data were processed

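RNA-seq libraries of single embryos were analysed from 2 tables. Adapters and low-quality ends were removed by the authors (fastp 0.20.1), followed by alignment (STAR 2.7b) and gene counting (featureCounts 1.6.4), and they removed sex-linked genes (GENCODE, GRCm38.p6). The paper gives as the reason that the sexes were unevenly spread across the controls and mutants. The part of embryo sex in the values of the remaining genes was not tested. Each deposited signal value is a gene's count after division by a size factor (DESeq2), which was estimated within 1 table. Whole reads were recovered for all values within a tolerance of 0.01. The tables also hold the authors' log2 fold changes, statistics and p-values, which were not used. Deposited exon length (other unit) served for levels per length.

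Genes with a mean of at least 10 were tested as log2(value + 1) with limma 3.58.1 (trend, two-sided, Benjamini-Hochberg over all genes tested, threshold 0.05), so that fold changes of low genes are understated. Single genes were tested by exact permutation (SciPy 1.17.1), without adjustment for the number of genes. Alternatives were other pseudocounts and filters, TMM factors, no trend, DESeq2 1.42.0 and edgeR 4.0.16 on recovered reads, a replicate block, name style and leaving out each library. Group sizes were 4 against 5 and 3 against 3, and each library is 1 embryo. On simulated data with a log2 change of 1.5, 64.47% of 197 changed genes were called in the Lhx6 design (16717 genes) and 69.35% of 199 in the Mtg8 design (16120 genes). The simulated libraries held no difference by name style, and smaller changes were not simulated. The largest log2 fold change of the listed genes in the Mtg8 table was 1.06, so these rates do not give the sensitivity for them. Promoter windows came from RefSeq.

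The genes and lists were chosen with earlier results of these data known. Values per library are given for genes that passed the test or whose groups did not overlap in either table and for the highest gene per length of each group, other genes by ranges or fold changes. Genes shown at an unadjusted p under 0.05 and Ncor1 were added after their values were seen. The result of 1 interneuron marker is not reported here.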

Additional observations from a re-analysis of the deposited data

Results flagged for a closer look

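In 80 groups of 4 or 5 Lhx6 libraries, 3 had a library set apart from the rest of its group by the Dixon criterion at 95%, which chance meets in about 1 of 20 groups. Ctbp1 in Lhx6 mutant 3 was at 6602 normalized counts, and the next mutant was at 3666. Bcl6 in Lhx6 control 2 was at 70.9 normalized counts, against 42.3 in the next control, and remained below the lowest mutant at 193. Hdac1 in Lhx6 control 3 was at 1446 normalized counts, and the next control was at 1665. The groups of 3 in the Mtg8 table are too small for this criterion.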

How the results depend on the processing

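The number of the 40 genes called in the Lhx6 table was 2. It was 1 (Bcl6) without the filter on low values, without the trend and with the replicate block, 0 with name style as a covariate, and 4 (Bcl6, Tle1, Chd3 and Tle3) with DESeq2. When each library was left out in turn it ran from 1 to 4, with 4 in the absence of mutant 6 and 2 in the absence of mutant 1. Over all genes, 286 were called in the Lhx6 table, 811 with DESeq2, 86 with the replicate block, 57 with name style as a covariate, and 159 to 492 when a library was left out, lowest in the absence of control 1 (159) and highest in that of mutant 6 (492); controls 2 and 4 gave 174 and 173. In the Mtg8 table none of the 40 was called except Mbd3 without mutant 2 (1 gene). Over all genes there were 0 calls, 1 without the filter, 2 with a minimum mean of 50, 1 with edgeR, 30 with DESeq2, 100 with the replicate block, and 0 to 87 when a library was left out, 87 of them without mutant 2. Why these counts differ was not tested, but name style leaves 1 mutant to compare with the Lhx6 controls.

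Replicate numbers were not taken to pair the libraries, and the 2 pairs of the Mtg8 table are too few to decide. Deviations of same-numbered Lhx6 libraries correlated at -0.03 on average over 3 pairs (0.00 over the 17 others), and in the Mtg8 table at 0.15 over 2 pairs (-0.04 over 7). With the replicate block Bcl6 kept its call in the Lhx6 table (log2 fold change 2.83, limma adjusted p = 0.0139) and Tle1 did not (-0.82, adjusted p = 0.416).

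Of 380 refitted log2 fold changes of 20 genes in the Lhx6 table, 17 changed sign, as did 37 of 319 in the Mtg8 table. No such value was a call, with adjusted p of 0.849 or above. In the Lhx6 table these were, with name style as a covariate, Hdac1 (0.14), Hdac10 (0.35), Hdac5 (-0.19), Hdac9 (0.27), Mbd3 (0.28), Mta2 (0.025), Rcor1 (-0.044) and Sirt2 (0.11), and with the replicate block Hdac2 (0.0021) and Hdac4 (0.022). With a library left out the ranges were Hdac4 -0.15 to 0.075, Hdac5 -0.063 to 0.15 and Hdac9 -0.26 to 0.083. In the Mtg8 table they were, with the replicate block, Chd3 (0.12), Ctbp1 (-0.21), Hdac1 (0.074), Hdac10 (0.45), Sirt2 (-0.00045) and Tle1 (-0.018), with name style Hdac1 (0.081), Hdac10 (0.17), Kdm1a (0.041) and Sin3b (-0.012), and Gps2 with TMM factors (0.013) and edgeR (0.0026). With a library left out the ranges were Bcl6 -0.0015 to 0.89, Chd3 -0.41 to 0.10, Ctbp1 -0.27 to 0.31, Gps2 -0.12 to 0.088, Hdac1 -0.18 to 0.041, Hdac10 -0.35 to 0.27, Hdac2 -0.32 to 0.035, Kdm1a -0.36 to 0.19, Mta2 -0.053 to 0.29, Sin3b -0.093 to 0.12, Sirt2 -0.0060 to 0.22, Tle1 -0.11 to 0.38, Tle3 -0.11 to 0.28 and Zbtb18 -0.078 to 0.75. In the Mtg8 table the lowest library held 17 reads of Bcl6. In the Lhx6 table, the difference of mutant 6 from the controls within the undated names had the sign of the fitted value for 28 of the 40 genes. It had the opposite sign for 12. Among these 12 were Ncor1 (-0.059), Ctbp2 (0.22), Mta3 (0.52) and Mbd2 (-0.32), which were not among the 20 genes refitted.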

Other observations

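Within 500 kb on either side of Bcl6, 6 other genes were tested in the Lhx6 table and 1 was called. That gene is Sst, the somatostatin gene and the marker of one main class of MGE-derived interneurons, which lies 74.094 kb from Bcl6 on chromosome 16 and on the same strand. Sst fell by 3.06 on the log2 scale in Lhx6 mutants (limma adjusted p = 9.01e-08), from a mean of 11499 to 1388 normalized counts, and passed with name style as a covariate too (-3.28), whereas Bcl6 rose by 2.68 and did not pass with that covariate (2.05, adjusted p = 0.123). In the Mtg8 table the log2 fold changes were -1.34 for Sst and 0.59 for Bcl6, and neither passed the test. Lpp, 405 kb away on the other side, had a log2 fold change of 0.45 and Masp1, 444 kb away, of -0.79, and neither passed in the Lhx6 table. These neighbours were looked at after the values of Bcl6 were known.

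Markers of MGE-derived interneurons were measured in the same libraries. In Lhx6 mutants Dlx5 (1.02) and Dlx6 (1.66), homeobox genes of early GABAergic neurons, rose on the log2 scale, and Npy (-1.61) and Satb1 (-1.56) fell, all 4 with adjusted p under 0.05 by limma. With name style as a covariate Npy (-2.13) and Satb1 (-2.04) still passed and Dlx5 (0.85) and Dlx6 (0.97) did not. Lhx6 and Sst fell as given above, and 8 of the 15 markers did not pass.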
